A study of Mus musculus with 12 samples.

Results

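Tight junctions are the strands of membrane protein that seal neighbouring cells to each other. In the testis they join Sertoli cells near the base of the tubule and, together with adherens and gap junctions, form the blood-testis barrier, behind which meiosis and the shaping of spermatids take place. Claudins and occludin form the seal, junctional adhesion molecules of the immunoglobulin superfamily lie beside them, and zonula occludens scaffolds tie both to actin.

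The genes described here are 9 in number, taken by symbol from a table of 20718 genes. They are the claudins Cldn3, Cldn5 and Cldn11, occludin (Ocln), the zonula occludens scaffolds Tjp1 and Tjp3, and the junctional adhesion molecules F11r, Jam2 and Jam3. The RNA came from whole testis of mice whose strain the labels give as IRC, and 12 libraries fall into 4 groups of 3. In F0_5251KD a mixture of short hairpin RNAs against the long non-coding RNA lncRNA5251 was carried by the LV3 lentiviral vector, and F0_3NC received the same vector with a hairpin that has no target. In F0_5251OV lncRNA5251 was carried by the LV5 vector, and F0_5NC received that vector empty. Per the study's methods all mice were juvenile males injected with lentivirus and were killed as adults after mating, so no group was left untreated. The table has no row under the name lncRNA5251, and its own level was not analysed here. The labels do not say whether the 3 libraries of a group come from separate animals, so the p-values measure the spread between libraries, which may be technical.

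Each library held 15431383 to 16355720 estimated counts, so depth was nearly equal. Levels are given in FPKM (fragments divided by the length of the transcript and the size of the library), which can be compared between genes, and comparisons between groups use CPM (counts scaled by library size with TMM), which can be compared for 1 gene between libraries. The tissue label was met by the markers, since the 15 Sertoli cell markers and the 9 spermatid markers all had counts in every library. Epididymis markers were uneven. Their summed CPM was 126.8 and 127.9 in F0_5NC replicates 2 and 3 and 94.3 and 69.4 in F0_5251OV replicates 1 and 2. It was 5.21 to 21.9 in all other libraries. In 3 groups a library stood apart from the other two. The chi-square of counts per gene was 17.7 and 20.2 between F0_3NC replicate 2 and its group, 13.5 and 16.5 for F0_5251OV replicate 1 and 13.1 and 9.70 for F0_5NC replicate 1, against 3.73 to 5.91 for all other pairs within a group. F0_5NC replicate 1 had the highest value of the 12 libraries for 16.1% of the 16296 genes tested. For the 9 genes and the marker relations, values without these libraries are given beside the results that they move most. For other genes and for medians of markers no such values are given. In whole testis, fewer cells of a type and less RNA per cell cannot be told apart. The letters of all 3 knockdown hairpins occur, with no mismatch allowed, in 1 of 141767 annotated transcripts, that of Purb, and in none of the 9 genes. Purb lay between 8.02 and 11.1 FPKM, with a log2 fold change of -0.11 in F0_5251KD and 0.04 in F0_5251OV (edgeR adjusted p = 0.897 and 0.907).

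The 9 genes lie on 8 chromosomes of the mouse genome (GRCm38, the mm10 build of the labels, with gene limits from RefSeq). Cldn3 (chromosome 5, 134986214 to 134987476) and Cldn5 (chromosome 16, 18776847 to 18778262) are both on the forward strand and have a single exon. Cldn11 (chromosome 3, 31149920 to 31164326, forward strand) has 3 exons. Ocln lies on chromosome 13 (100496504 to 100552718, reverse strand) and has 9 exons in its longest GENCODE transcript. The scaffold gene Tjp1 spans chromosome 7, 65296165 to 65527850, on the reverse strand with 28 exons, and Tjp3 lies on chromosome 10 (81273188 to 81291581, reverse strand) with 21. F11r is on chromosome 1 (171437561 to 171464593, forward strand), Jam2 on chromosome 16 (84774123 to 84826380, forward strand) and Jam3 on chromosome 9 (27097384 to 27155421, reverse strand). An exon of Cldn3, of Tjp3 and of Jam3 is overlapped on the opposite strand by Wbscr25, Apba3 and Gm48796, in that order, and the library preparation names no step that keeps the strand, so reads from either partner cannot be told apart there.

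The promoters of the 3 claudins and of F11r are shown, and those of Tjp1, Ocln and Tjp3 are only described. RefSeq sequences (GRCm38.p6) were at hand for 7 of the 9 genes. The 250 bases before the annotated start are printed 5′ to 3′ on the strand of the gene, and the capitals mark CCAAT or its reverse complement ATTGG, the letters of the CCAAT box. The motifs were chosen after the sequences had been seen.
Cldn11, chr3:31149670-31149919, forward strand: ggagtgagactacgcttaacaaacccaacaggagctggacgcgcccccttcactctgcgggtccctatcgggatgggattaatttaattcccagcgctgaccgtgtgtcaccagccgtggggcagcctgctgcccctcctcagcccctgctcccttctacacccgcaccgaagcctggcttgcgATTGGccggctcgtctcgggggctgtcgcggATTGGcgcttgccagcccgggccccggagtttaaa
Cldn5, chr16:18776597-18776846, forward strand: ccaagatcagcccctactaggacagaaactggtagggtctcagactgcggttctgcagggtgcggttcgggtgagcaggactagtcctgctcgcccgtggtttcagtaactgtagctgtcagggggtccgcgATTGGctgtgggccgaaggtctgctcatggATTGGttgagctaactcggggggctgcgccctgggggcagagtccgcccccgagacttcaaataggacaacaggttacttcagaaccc
F11r, chr1:171437311-171437560, forward strand: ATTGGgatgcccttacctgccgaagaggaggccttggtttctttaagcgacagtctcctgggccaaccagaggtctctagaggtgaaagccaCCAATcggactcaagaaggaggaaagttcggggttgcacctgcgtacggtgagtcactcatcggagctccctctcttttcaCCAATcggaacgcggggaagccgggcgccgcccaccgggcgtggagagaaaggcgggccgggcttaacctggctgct
Cldn3, chr5:134985964-134986213, forward strand: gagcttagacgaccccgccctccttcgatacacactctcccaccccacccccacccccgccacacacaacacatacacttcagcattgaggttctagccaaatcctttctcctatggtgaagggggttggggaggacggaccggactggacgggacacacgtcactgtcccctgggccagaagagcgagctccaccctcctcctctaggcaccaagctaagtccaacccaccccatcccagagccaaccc

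Cldn11 had the CCAAT letters at 2 places, whose first base lay 66 and 35 bases before the start, and Cldn5 had them at 118 and 88. In F11r they stood at 3 places, 250, 158 and 77 bases before the start, and the window of Cldn3 held none. Of the windows not shown, that of Tjp1 held no CCAAT letters and had the GC box letters GGGCGG at 2 places. Ocln and Tjp3 each had a window with CCAAT and another without. Among 32536 distinct promoter windows of the same length, 33.8% held CCAAT on either strand. The GC box letters GGGCGG were found once each in F11r, Cldn3 and Cldn5 and not in the Cldn11 window, against 33% of all windows. TATAAA, found in 12.3% of all windows, was in none of the 4. The 4 windows had 59.6% to 63.6% G and C, and the median window had 52.4%. These matches describe the letters only.

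Cldn11, the claudin that Sertoli cells need to form their tight junctions, had the highest level of the 9 genes, 41.6 ± 8.47 FPKM (mean ± SD, n = 12). Cldn3, found at newly assembled Sertoli cell junctions, followed at 27.9 ± 4.81 FPKM, and was below Cldn11 in all 12 libraries. Jam3, whose protein is also needed by spermatids, and Tjp1, the scaffold known as ZO-1, had levels of 18.5 and 18.3 FPKM and could not be ordered, Jam3 being the higher in 6 of 12 libraries. F11r (JAM-A) had 8.03 FPKM, below Tjp1 in every library.

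Cldn5, which seals endothelium and is also made by Sertoli cells, had 4.60 FPKM, and Jam2 (JAM-B), a partner of JAM-C, had 3.43. Cldn5 was the higher of this pair in 10 of 12 libraries. Ocln was lower, at 1.82 FPKM, and Tjp3, the scaffold ZO-3, was nearly absent at 0.216 FPKM. All other neighbours in this order kept it in 12 of 12 libraries. Tjp3 had 5 to 17 counts per library, so its changes are poorly measured, whereas Cldn11 had 896 to 1806.

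**Figure D1:**
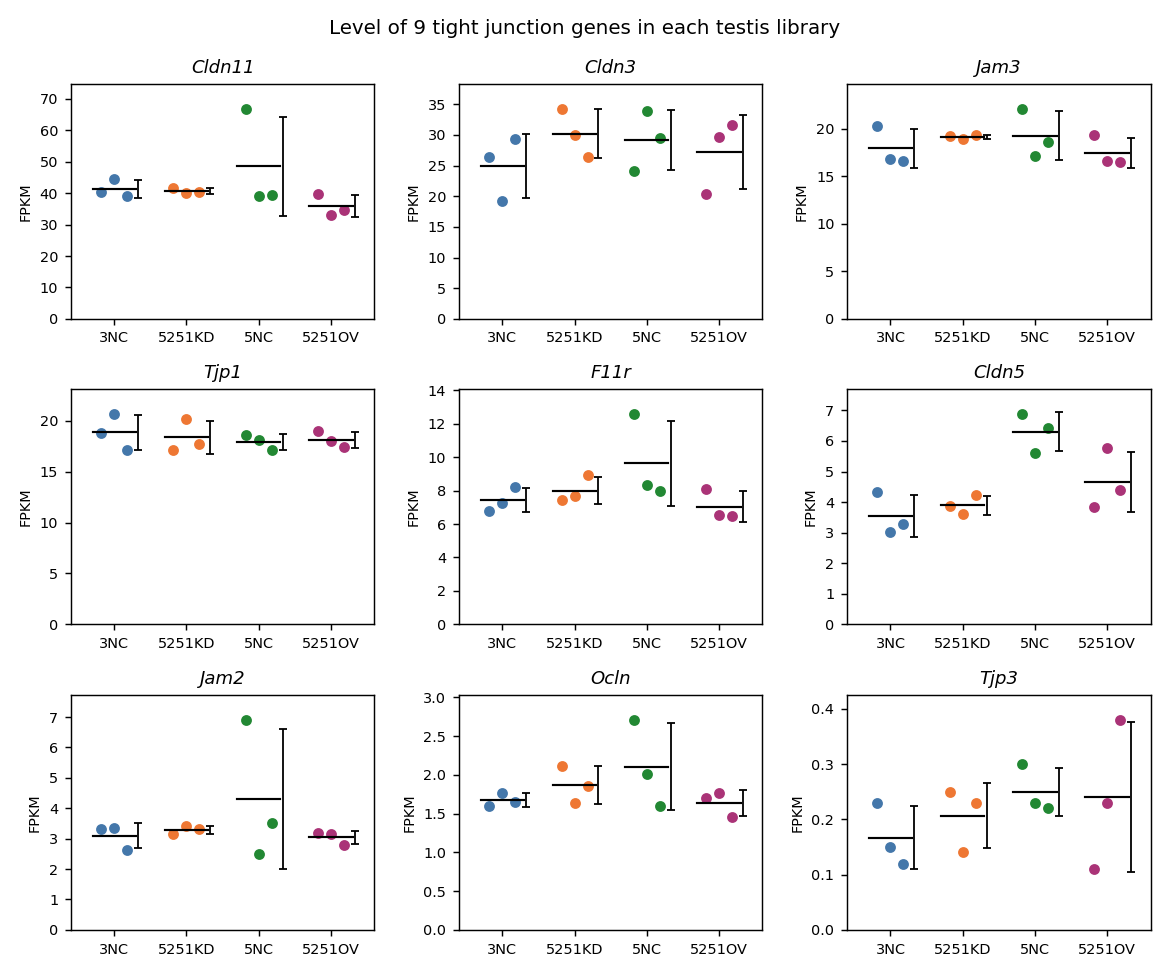
Level of each of the 9 genes (vertical axis, FPKM, from 0) in the 3 libraries of each group (points), with the group mean (line) and its SD (bar). One F0_5NC library lies above all others for Cldn11, F11r, Jam2 and Ocln, and the Cldn5 points of F0_5NC lie highest as a group.

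Within its family, Cldn11 made up 33.2% to 52.5% of the summed claudin FPKM (27 claudin genes of the table, median of the libraries 37.6%), and Cldn3 made up 17.95% to 31.9%. Cldn5 contributed 2.83% to 5.99%. The ratio of Cldn3 to Cldn11 FPKM varied from 0.360 in F0_5NC replicate 1 and 0.432 in F0_3NC replicate 2 to 0.909 in F0_5251OV replicate 3. The next lowest, 0.509, was in F0_5251OV replicate 1, so that F0_5251OV held both a low ratio and the highest one, and all other libraries had 0.653 or more. Among the junctional adhesion molecules Jam3 gave 53.2% to 66.8%, F11r 22.3% to 30.2% and Jam2 8.94% to 16.6%.

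**Figure D2:**
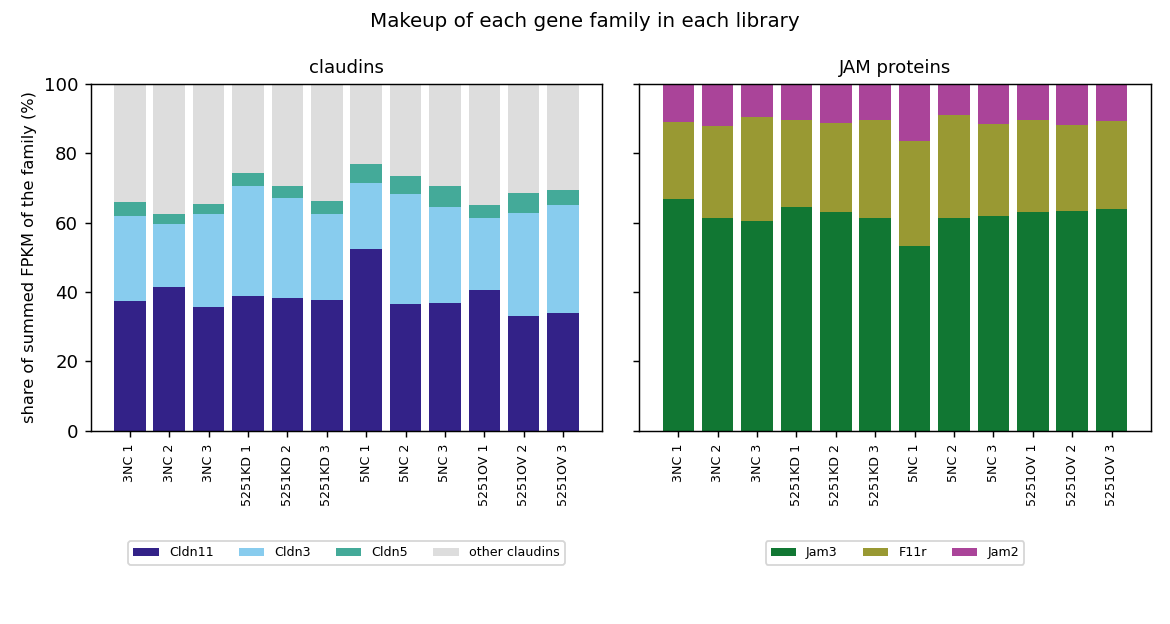
Share of each gene in the summed FPKM of its family (vertical axis, percent) in each of the 12 libraries (bars, horizontal axis). Cldn11 reaches 52.5% in F0_5NC replicate 1, against a median of 37.6%, and Jam3 holds 53.2% to 66.8% of its family throughout.

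The first comparison, F0_5251KD against F0_3NC, asks whether knockdown of lncRNA5251 changes the barrier genes relative to the hairpin control. None of the 9 genes passed an adjusted p of 0.05, in a comparison where 0.0245% of all genes did, and none had an unadjusted p under 0.05, against 4.74% of all genes. The groups overlapped for all 9, while they did not for 11.8% of all genes. The fitted log2 fold changes ran from -0.05 for Tjp1 to 0.30 for Tjp3, with 7 above 0 and a median of 0.10 (all genes -0.004).

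Cldn11 was nearly the same in both groups. Its CPM was 71.3, 70.3 and 70.3 in F0_5251KD and 71.1, 76.5 and 69.1 in F0_3NC. The log2 fold change was -0.03 ± 0.14 (SE), with a 95% interval of -0.34 to 0.27. Tjp1 had the tightest interval, -0.23 to 0.13. For Jam3 the interval was -0.13 to 0.30, and for F11r -0.23 to 0.42. The widest intervals were those of Jam2, -0.51 to 0.59, and Tjp3, -0.71 to 1.31.

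Cldn3 was the abundant gene with the largest difference, 0.26 ± 0.21 (SE, edgeR adjusted p = 0.897). Its CPM was 38.1, 34.2 and 29.8 in F0_5251KD and 30.2, 21.4 and 33.7 in F0_3NC. The groups overlapped, F0_3NC replicate 2 was the lowest of all 12 libraries, and without it the log2 fold change was 0.09. Ocln differed by 0.17 (95% interval -0.18 to 0.51) and Cldn5 by 0.13 (-0.27 to 0.53), the latter by 0.01 without that library. Without it Cldn11 and Tjp1, which were below 0, stood at 0.012 and 0.005.

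The second comparison, F0_5251OV against F0_5NC, asks the same of overexpression. Here 8 of the 9 genes were lower in F0_5251OV while Tjp1 had the opposite sign. Their median difference was -0.33 on the log2 scale (all genes -0.002), and none passed the adjusted threshold, which 0% of all genes did. The unadjusted p was under 0.05 for 3 of the 9, Cldn11, F11r and Cldn5, against 8.77% of all genes. Markers of several somatic cell types were lower in F0_5251OV too. This held for 15 of 15 Sertoli cell markers (median log2 fold change -0.21), 7 of 7 Leydig cell markers (-0.22), 10 of 12 endothelium markers (-0.18), 6 of 7 macrophage markers (-0.34) and 5 of 6 markers of peritubular smooth muscle (-0.42), of which 66.7% had an unadjusted p under 0.05. Spermatid markers were higher for 8 of 9 (0.05). Within F0_5NC, replicate 1 had the highest summed CPM for Sertoli cell, Leydig cell, endothelium and macrophage markers, and the lowest for peritubular smooth muscle. Of these somatic lists, only the Sertoli cell sums did not overlap, at 1051 to 1211 in F0_5251OV and 1234 to 1794 in F0_5NC. The sums of peritubular smooth muscle were 317.5 to 359 and 304.6 to 362.8. None of the markers of these types passed the adjusted threshold, and their part in the levels of the junction genes was not tested.

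Cldn11 had a CPM of 68.9, 58.5 and 62.8 in F0_5251OV and of 108, 70.0 and 68.9 in F0_5NC. The groups did not overlap, as for 13.9% of all genes, but by only 0.01 CPM, and they did overlap in FPKM. The log2 fold change was -0.38 ± 0.14 (SE, edgeR adjusted p = 0.552). It was -0.13 without F0_5NC replicate 1.

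F11r had a CPM of 19.0, 15.5 and 15.8 in F0_5251OV and of 27.5, 20.1 and 18.8 in F0_5NC. One library of F0_5251OV lay within the range of the controls. The log2 fold change was -0.40 ± 0.15 (SE, edgeR adjusted p = 0.552) and -0.21 without F0_5NC replicate 1. Cldn5 had 4.89, 7.51 and 5.88 CPM against 8.21, 7.40 and 8.25. Its log2 fold change was -0.39 ± 0.18 (SE, edgeR adjusted p = 0.568), and -0.36 without that control library, or -0.25 without F0_5251OV replicate 1.

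Jam2 had the largest fitted difference of the 9, -0.44 ± 0.25 (SE, edgeR adjusted p = 0.612). Its CPM was 14.2, 14.3 and 12.7 in F0_5251OV and 29.2, 11.1 and 15.5 in F0_5NC. The difference lay in 1 control library, and without it the log2 fold change was 0.04. Ocln, at 5.64, 5.74 and 5.11 CPM against 8.33, 6.74 and 5.63, gave -0.33 (95% interval -0.67 to 0.01), or -0.17 without that library. The remaining genes differed little, with intervals of -0.12 to 0.24 for Tjp1, -0.31 to 0.13 for Jam3 and -0.51 to 0.38 for Cldn3. Tjp3, at -0.02, had an interval of -0.94 to 0.91. Without F0_5251OV replicate 1, Cldn3 turned from -0.06 to 0.12 and Tjp3 to 0.33.

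**Figure D3:**
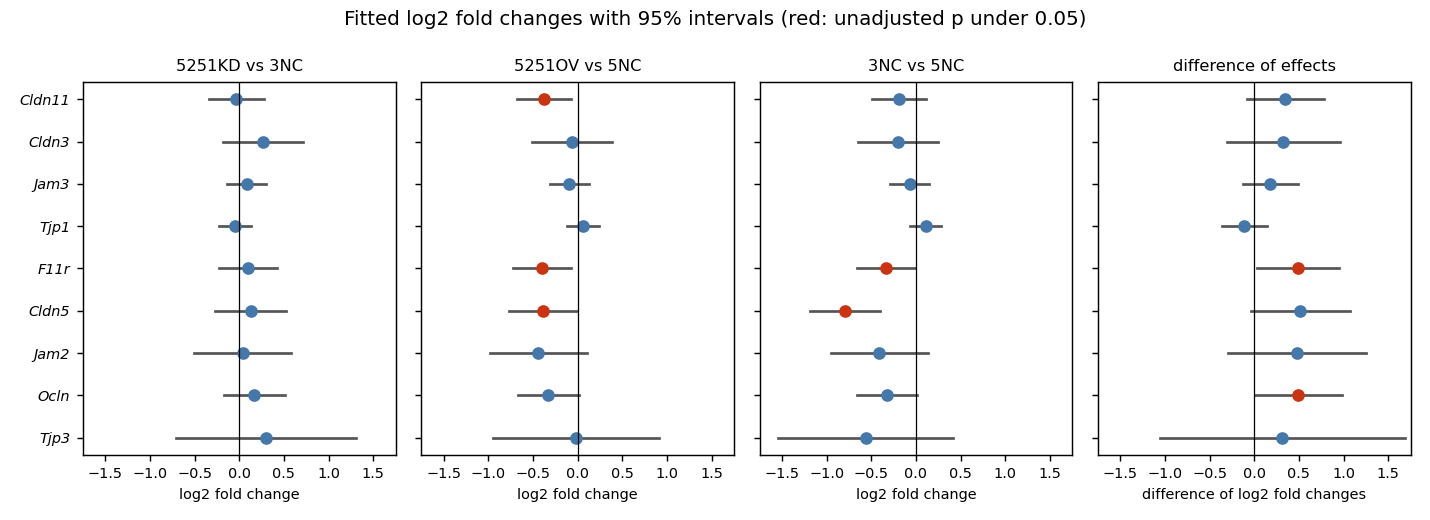
Fitted log2 fold change (horizontal axis) of each gene (rows) in each comparison with its 95% interval, the last panel giving the difference between the effect of F0_5251KD and that of F0_5251OV. Points with an unadjusted p under 0.05 are red, and the interval of Cldn5 in F0_3NC against F0_5NC, -1.19 to -0.41, lies farthest from 0.

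F0_5NC replicate 1 gave the highest CPM of all 12 libraries for 5 of the 9 genes, Cldn11, Jam3, F11r, Jam2 and Ocln. Relative to the median of the other 11 libraries, Jam2 was 2.05 times, Cldn11 1.55 times, F11r and Cldn5 each 1.51 times and Ocln 1.48 times as high there. Jam3 was 1.11 times, Tjp3 1.22 times and Tjp1 0.948 times that median, and Cldn3 went the other way at 0.752 times.

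Sertoli cell markers were also high in F0_5NC replicate 1. In that library 14 of the 15 were at their highest, with a median ratio of 1.41, and their summed CPM was 1794, against 1023 to 1299 in the other 11. Macrophage markers were at their highest there for 5 of 7, with a median ratio of 1.42, and spermatid markers for 0 of 9, with a median ratio of 0.827. In the Sertoli cell sum, here and below, the largest part was Clu, with 7966 to 17343 counts per library. The next marker, Ctsl, had 3462 to 5490. The part of Sertoli cells, macrophages and spermatids in the levels of the junction genes was not tested.

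**Figure D4:**
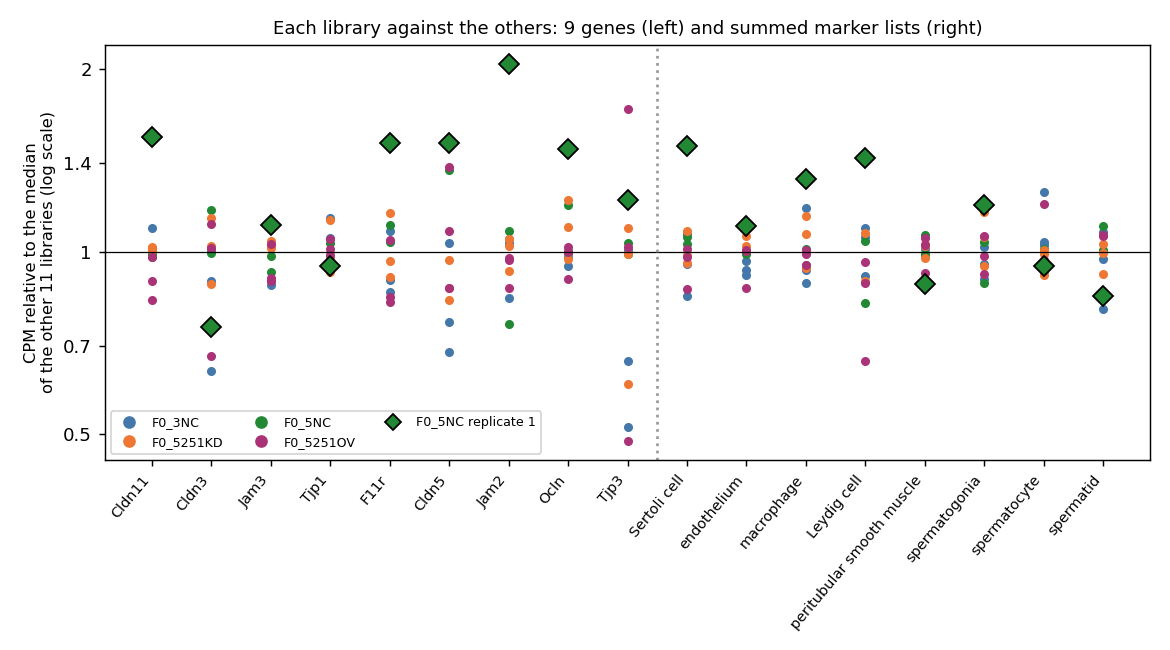
CPM of each library relative to the median of the other 11 (vertical axis, log scale) for the 9 genes (left of the dotted line) and for summed marker lists of 8 cell types (right), coloured by group. The diamond of F0_5NC replicate 1 lies at 2.05 for Jam2 and near 1.5 for Cldn11, F11r, Cldn5, Ocln and the Sertoli cell markers.

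The control vectors were compared with each other because both treated groups are read against one of them. In F0_3NC against F0_5NC, 8 of the 9 genes were lower, with a median log2 fold change of -0.32 (all genes 0). None passed the adjusted threshold, against 0.331% of all genes, and 2, Cldn5 and F11r, had an unadjusted p under 0.05, against 11.9% of all genes.

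Among the 9 genes and over the 4 comparisons, Cldn5 had the lowest adjusted p here. Its CPM was 5.61, 3.83 and 4.29 in F0_3NC and 8.21, 7.40 and 8.25 in F0_5NC, so that the groups did not overlap, as for 17% of all genes. The log2 fold change was -0.80 ± 0.18 (SE, 95% interval -1.19 to -0.41, edgeR adjusted p = 0.117). DESeq2 called it, with a log2 fold change of -0.81 and an adjusted p of 0.0264, and over all alternatives the adjusted p ran from 0.0264 to 0.38. Leaving out 1 library at a time gave values from -0.96 to -0.68. The F0_5251KD libraries, at 4.67 to 5.43 CPM, lay within the range of F0_3NC, and the F0_5251OV libraries, at 4.89 to 7.51, lay between the controls or overlapped both.

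Most markers of Sertoli cells and of endothelium, the sites of Cldn5 named above, were lower in F0_3NC as well. Of the Sertoli cell markers 15 of 15 were lower, with a median log2 fold change of -0.22, and 33.3% had an unadjusted p under 0.05. Their summed CPM was 1023 to 1280 in F0_3NC and 1234 to 1794 in F0_5NC. The 1794 was that of F0_5NC replicate 1, and replicates 2 and 3, at 1269 and 1234, lay below F0_3NC replicate 1 at 1280. For endothelium the summed CPM over 12 markers, all with counts in every library, was 70.7 to 74.4 in F0_3NC and 76.6 to 84.7 in F0_5NC, 10 of the 12 were lower in F0_3NC, and their median log2 fold change was -0.14. In F0_5251KD the endothelium sum was 78.6 to 85.2 and Cldn5 had 4.67 to 5.43 CPM. Genes of the epididymis also differed, with a summed CPM of 7.99 to 13.7 in F0_3NC and 21.9 to 128 in F0_5NC, and the part of these cells in the Cldn5 level was not tested.

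F11r, at 16.1, 16.9 and 19.7 CPM in F0_3NC, gave -0.33 (95% interval -0.66 to -0.01, edgeR adjusted p = 0.41) and -0.15 without F0_5NC replicate 1. Cldn11 gave -0.19 and Jam2 -0.41, and both turned to values above 0, 0.05 and 0.07, without that library. Ocln differed by -0.32 and by -0.17 without it. Without F0_3NC replicate 2, Cldn3 went from -0.20 to -0.03 and Tjp1 from 0.11 to 0.06. Cldn3, Jam3 (-0.07) and Tjp1 had intervals that held 0, as did Tjp3 (-0.56), whose interval ran from -1.55 to 0.42.

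The effect of F0_5251KD and that of F0_5251OV, each against its own control, were then subtracted to ask whether they differ. The difference was above 0 for 8 of the 9 genes, with a median of 0.35 (all genes 0.003), and 0 of the 9 passed the adjusted threshold, as 0% of all genes did. F11r (0.49, 95% interval 0.03 to 0.95, edgeR adjusted p = 0.424) and Ocln (0.50, 0.01 to 0.98, edgeR adjusted p = 0.441) had an unadjusted p under 0.05, against 11.3% of all genes. Without F0_5NC replicate 1 they were 0.32 and 0.35. Cldn5 gave 0.51 (-0.04 to 1.07) and Cldn11 0.35 (-0.08 to 0.78), which was 0.11 without that library. Jam2 fell from 0.48 to 0.003 when it was left out. All comparisons with F0_5NC share its 3 libraries, as those with F0_3NC share theirs.

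The levels of the 9 genes were set against the summed markers of 11 cell types over the 12 libraries, 99 relations in all. Both CPM values were taken on the log2 scale, and the relations share library and tissue makeup. None passed a Benjamini-Hochberg adjusted permutation p of 0.05. The smallest adjusted p of r, 0.0584, was shared by 4 relations. One was Cldn3 with the spermatid markers (Pearson r = 0.868, permutation p = 0.00065, adjusted p = 0.0584, and Spearman rho = 0.699, permutation p = 0.0143, adjusted p = 0.217, n = 12). Leaving out the libraries farthest from the median, F0_3NC replicate 2 and F0_5NC replicate 1, gave r = 0.736. The spermatid sum was mostly Prm1, Prm2, Tnp1 and Tnp2, each with at least 25988 counts per library. No other marker of that list had more than 23805, and Spaca1 was at its highest in F0_3NC replicate 2, where the sum was lowest. Relations with the spermatid sum thus describe protamine and transition protein transcripts more than the list. Another was Cldn3 with peritubular smooth muscle markers (r = 0.843, permutation p = 0.00179, rho = 0.685, permutation p = 0.0175, adjusted p = 0.217), and r was 0.716 without the same libraries. The sum of that list, used for Cldn11 below as well, was mostly Actg2. This gene had 3409 to 4402 counts per library, and no other marker of the list had more than 724. Actg2 was lowest in F0_5NC replicate 1, where Acta2, Myh11 and Des were at their highest, while Tagln and Cnn1 were highest in F0_5251KD libraries. Relations with this sum thus describe Actg2 more than the list. Cldn3 also had r = -0.825 with spermatocyte markers (permutation p = 0.00195, rho = -0.706, permutation p = 0.0131, adjusted p = 0.217), which was -0.365 without F0_3NC replicate 2 and F0_5251OV replicate 1 and so rested on those libraries. The fourth was Cldn11 with peritubular smooth muscle markers (r = -0.713, permutation p = 0.00236, rho = -0.524, permutation p = 0.0846, adjusted p = 0.467), which fell to -0.345 without F0_3NC replicate 2 and F0_5NC replicate 1. Without F0_5NC replicate 1 alone, r of these 4 relations was 0.853, 0.846, -0.97 and -0.569, in the order given. With Sertoli cell markers Cldn3 had r = 0.147 (permutation p = 0.648, adjusted p = 0.812) and 0.855 without F0_5NC replicate 1. The 3 libraries with the lowest Cldn3, at 21.4, 22.7 and 25.4 CPM, were also the 3 with the lowest spermatid sum, 13310, 14240 and 14010 CPM. In that order they were F0_3NC replicate 2, F0_5251OV replicate 1 and F0_5NC replicate 1, the libraries that stood apart within their groups. The r of 0.736 still included F0_5251OV replicate 1, and r without all 3 was not computed.

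Cldn11 had r = 0.705 with the Sertoli cell markers (permutation p = 0.063, adjusted p = 0.223) and rho = 0.336 (permutation p = 0.286, adjusted p = 0.673, n = 12). The relation rested on F0_5NC replicate 1, since r was 0.130 without the libraries farthest from the median and -0.235 without that library alone. Cldn5 had r = 0.640 with the Sertoli cell markers (permutation p = 0.0121, adjusted p = 0.149, rho = 0.657, permutation p = 0.024, adjusted p = 0.264, n = 12), or 0.376 without the libraries farthest from the median. With epididymis markers r was 0.602 (permutation p = 0.043, adjusted p = 0.213, rho = 0.497, permutation p = 0.105, adjusted p = 0.471), or 0.359 without the libraries farthest from the median. Cldn5 had r = 0.377 with the endothelium markers (permutation p = 0.228, adjusted p = 0.474) and rho = 0.308 (permutation p = 0.333, adjusted p = 0.701, n = 12), and r = 0.531 without the libraries farthest from the median.

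**Figure D5:**
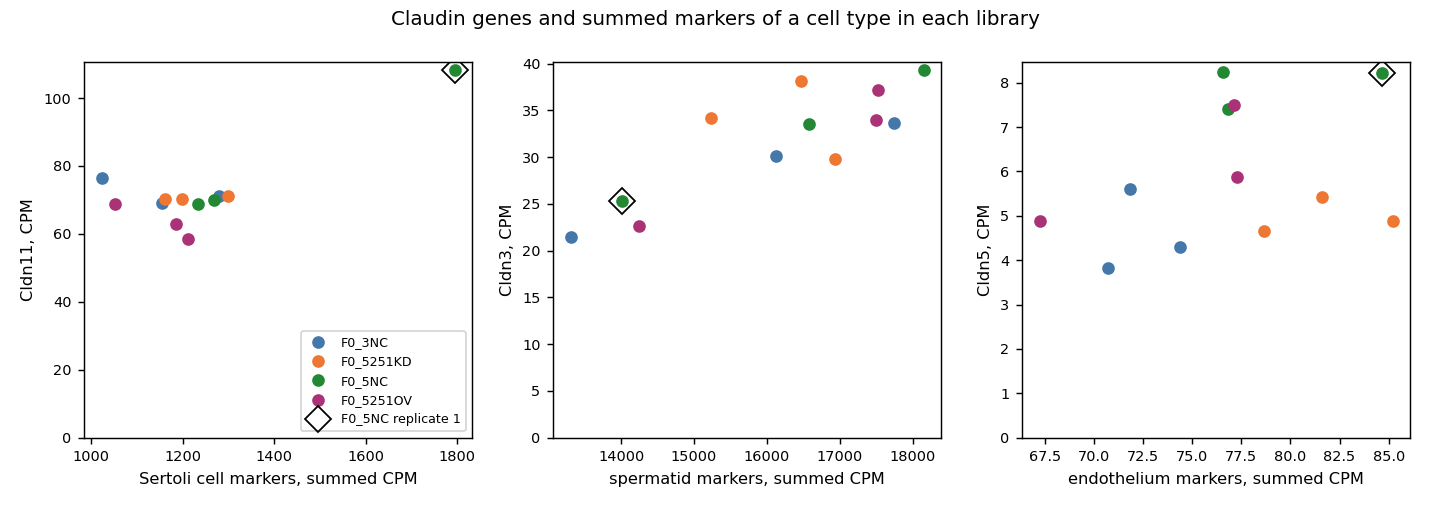
CPM of Cldn11, Cldn3 and Cldn5 (vertical axes, from 0) against the summed CPM of Sertoli cell, spermatid and endothelium markers (horizontal axes), 1 point per library coloured by group, with F0_5NC replicate 1 outlined. Cldn3 is lowest in the 3 libraries with the lowest spermatid sums, which are those that stood apart within their groups. The Cldn11 relation (r = 0.705, computed on log2 values) rests on the outlined library.

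The genes whose level over the 12 libraries was most like that of each junction gene were listed among 15167 genes of at least 1 CPM, by Pearson r of log2 CPM, as a description. For Cldn3 they included Nupr1l (r = 0.957) and Znrf4 (0.957), which had 0.954 and 0.974 without F0_5NC replicate 1. Cldn5 was most like Osr1 (0.892), Zfyve21 (0.873) and Scrn2 (0.867). The list of Cldn11 was Myof (0.947), Trank1 (0.931) and Ddah1 (0.927), which fell to 0.762, 0.730 and 0.623 without that library. Jam2 was likewise most like Tns3 (0.947, or 0.681 without it), Tet3 (0.933) and Vsig10 (0.920), and F11r most like Gpr179 (0.918, or 0.789), Ctsa (0.900) and Lhfp (0.893). The list of Ocln included Cnpy2 (0.960) and Tuba1b (0.955). Those of the remaining genes were, for Tjp1, Dus4l (0.923), Olfr613 (0.906) and Asb7 (0.901), for Tjp3, Trpc4ap (0.896), Unk (0.889) and Zfp282 (0.871), and for Jam3, LOC108167358 (0.900), Ablim1 (0.886) and Fam168b (0.872).

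Of 71 other tight junction genes, 51 passed the filter on low counts. Among 25 other claudins only 8 did, led by Cldn34d at 9.998 FPKM, Cldn34b1 at 5.64, Cldn13 at 5.11 and Cldn34a at 5.09, all below Cldn3 and Cldn11. Cldn16 and Cldn17 were at 0 in every library, and no claudin that failed the filter had more than 12 counts. Among other membrane proteins Nectin3, a nectin that spermatids carry at their contact with Sertoli cells, had 180 FPKM, Nectin2 25.7 and Igsf11, an adhesion molecule of Sertoli cells, 16.6. Of the scaffolds Ybx3, a Y-box protein that also binds RNA in germ cells, had 906 FPKM.

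In F0_5251KD against F0_3NC none of the 51 passed the adjusted threshold, and 7.84% had an unadjusted p under 0.05 (all genes 4.74%), with a median log2 fold change of 0.05. Amotl2, an angiomotin family scaffold, was 0.82 higher (edgeR adjusted p = 0.124) and Tjap1 0.35 higher (adjusted p = 0.897), while Cldn34d was 0.74 lower and the polarity protein Crb3 0.78 lower (edgeR adjusted p = 0.897 for each). Cldn34a (-0.28) and Nectin3 (-0.18) were next in their lists. In F0_5251OV against F0_5NC none passed and 11.8% had an unadjusted p under 0.05 (all genes 8.77%), with a median of -0.05. The lowest p-values belonged to Cldn23 (-0.998), Lsr (-0.60), the angulin that marks tricellular contacts, Ildr2 (-1.24), Cgn (-0.33), which encodes cingulin, and Pard6b (-0.41), with edgeR adjusted p from 0.536 to 0.552. Each of these genes had its highest CPM in F0_5NC replicate 1, and no fold change without that library is given for them. Ildr2 had 1.39 to 7.85 CPM in F0_5NC and 1.16 to 2.02 in F0_5251OV. Cldn34d, the other claudin named here, was 0.42 higher (edgeR adjusted p = 0.645).

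In F0_3NC against F0_5NC 1 of the 51 passed (all genes 0.331%) and 17.6% had an unadjusted p under 0.05 (all genes 11.9%). The gene that passed was Amotl2, which was lower at 3.80, 4.01 and 4.16 CPM against 9.47, 7.93 and 7.48. Its log2 fold change was -1.05 ± 0.15 (SE, edgeR adjusted p = 0.00422), and its F0_5251KD and F0_5251OV libraries, at 6.40 to 7.86 CPM, lay above F0_3NC and overlapped F0_5NC. Cldn23 (-1.46, edgeR adjusted p = 0.145), Cldn34d (0.82), Ildr2 (-1.06) and Nectin3 (0.20) had the lowest p-values of the other lists. Cldn23 and Ildr2 were highest in F0_5NC replicate 1, and Cldn34d and Nectin3 in F0_3NC replicate 2. Ildr2 had 1.65 to 2.19 CPM in F0_3NC, within the 1.39 to 7.85 of F0_5NC. The 51 had a median of -0.05. In the difference of effects 0 of the 51 passed, 19.6% had an unadjusted p under 0.05 (all genes 11.3%), and Amotl2 (1.03, edgeR adjusted p = 0.208), Tjap1 (0.61), Cldn34d (-1.16), Cldn23 (1.28), Nectin3 (-0.34) and Lsr (0.68) had the lowest p-values of their lists.

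Of 22 genes that regulate the barrier, such as kinases, small GTPases and cytokines, 21 passed the filter and none passed the adjusted threshold in any comparison. Eps8, an actin capping and bundling protein at Sertoli cell junctions, was 0.29 lower in F0_5251KD and 0.42 lower in F0_5251OV, each against its own control (edgeR adjusted p = 0.897 and 0.552). Mmp9 (0.96) in the first comparison, Tgfb3 (-0.29) in the second, Src (-0.26) and Tgfb2 (0.96) between the controls, and Tgfbr1 (-0.33) and Tgfb3 (0.37) in the difference of effects were the other genes with the lowest p-values of this list. Eps8, Tgfb3 and Src were highest in F0_5NC replicate 1, and Tgfb2 and Tgfbr1 in F0_3NC replicate 2. No values without these libraries are given for them.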

How the data were processed

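Whole testis RNA was analysed in 12 libraries, in 4 labelled groups of 3. Poly(A) RNA was selected on oligo(dT) beads by the authors, copied with random hexamers and sequenced on an Illumina HiSeq. Reads were aligned to reference genes with SOAPaligner, and the labels name the mm10 build. The authors deposited 1 table holding, for every gene in every library, an estimated count and an FPKM value. Which tool made the counts is not given in the sources used, and 12.0% of the values were not whole numbers (tolerance 1e-06), though those of the 9 genes were. Another 18 columns of per-sample values match no sample and were not used. Columns with the authors' averages were not used either.

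Rounded counts entered edgeR 4.0.16 under R 4.3.3 (scaling by TMM, filterByExpr, quasi-likelihood F test, two-sided, 8 residual degrees of freedom), in 1 fit of all 12 libraries, with p-values adjusted by the Benjamini-Hochberg method over 16296 genes and called at 0.05. The TMM factors ran from 0.97 to 1.08. Totals of 15431383 to 16355720 counts per library set the precision, and intervals are 95%. Log2 fold changes of Tjp3 rest on few counts and on the prior of the fit. Alternatives were DESeq2 1.42.0, limma 3.58.1 on log2(FPKM + 1) and log2(FPKM + 0.1), upper-quartile scaling, other filters, fits of the compared groups only, a replicate block, omission of each library in turn, and the pooled-count test named in the study's methods (adjusted p of 0.001, absolute log2 ratio of at least 1). Marker relations were computed on log2 CPM of the gene and log2 of the summed marker CPM. They used 100000 permutations, the observed order being 1 of them.

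The 9 genes and the gene lists were chosen with earlier results of these data known. Named are the 9 genes, per list and comparison the genes past the threshold or, with none, the 2 of lowest p, the 3 genes most like each of the 9, and list genes of at least 5 FPKM for their level. Some genes that would be named in this way are left out of the text. Gene limits and promoters are from RefSeq (GRCm38.p6), and exons and overlaps from GENCODE.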

Additional observations from a re-analysis of the deposited data

Results flagged for a closer look

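Cgn (cingulin) and Cgnl1 (paracingulin), scaffolds on the inner face of the tight junction, were singled out because every F0_5251KD library lay above every F0_3NC library and every F0_5251OV library lay below every F0_5NC library. The difference of effects was 0.44 for Cgn (edgeR adjusted p = 0.403) and 0.302 for Cgnl1 (edgeR adjusted p = 0.403) on the log2 scale, so neither passed the threshold. Cgn had 59.2 to 59.5 CPM in F0_5251KD, 50.6 to 59.0 in F0_3NC, 52.3 to 55.5 in F0_5251OV and 58.3 to 82.8 in F0_5NC, where the highest value was that of replicate 1. Cgnl1 had 65.1 to 65.6, 55.8 to 60.9, 58.5 to 64.9 and 67.0 to 70.1 CPM in the same order. Groups that do not overlap in both comparisons, in opposite directions, were found for 262 of the 16296 genes tested (1.61%), for 2 of the 51 other tight junction genes (3.92%) and for 0 of the 9 genes. Cgn cleared F0_3NC by a small margin, 59.16 against 59.02 CPM. With 3 libraries a group, no test for a single library that stands apart was made within groups.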

How the results depend on the processing

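No gene of the 9 passed the threshold in any comparison under any alternative, with the exception of Cldn5 in F0_3NC against F0_5NC, which DESeq2 called (-0.809, adjusted p = 0.0264), so that the count of called genes went from 0 to 1. Among the other tight junction genes DESeq2 called 1 in F0_5251KD against F0_3NC (Amotl2), 2 in F0_3NC against F0_5NC (Amotl2 and Tjap1) and 1 in the difference of effects (Amotl2). The pooled-count test of the study's methods, which ignores the spread between libraries, called 2 in F0_5251OV against F0_5NC (Cldn23 and Ildr2) and 4 in F0_3NC against F0_5NC (Amotl2, Cldn23, Cldn8 and Ildr2), where the main count was 1.

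Directions turned only when a library was left out, 13 times. In F0_5251KD against F0_3NC the log2 fold change ran from -0.062 to 0.012 for Cldn11, from -0.132 to 0.005 for Tjp1 and from -0.048 to 0.084 for Jam2. In F0_5251OV against F0_5NC it ran from -0.221 to 0.123 for Cldn3, from -0.523 to 0.332 for Tjp3 and from -0.706 to 0.044 for Jam2. In F0_3NC against F0_5NC it ran from -0.299 to 0.053 for Cldn11 and from -0.675 to 0.073 for Jam2, both turning without F0_5NC replicate 1. The difference of effects of Tjp3 ran from -0.033 to 0.822. The cause was not tested.

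The groups share replicate numbers, but samples of the same number did not deviate together (correlations from -0.173 to 0.065), so the numbers were not taken to pair them. With the number as a block the calls over all genes went from 4 to 2 in F0_5251KD against F0_3NC and from 54 to 50 between the controls, and stayed at 0 in the other 2 comparisons. Cldn5 between the controls had -0.80 and an adjusted p of 0.229 with the block.

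With 3 libraries a group the intervals of Cldn5, Ocln and Jam2 are wide, and a p that misses the threshold does not show that levels were alike. Tjp3, at 5 to 17 counts, failed the filter of 1 CPM in 3 libraries.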
